A study of Mus musculus with 14 samples.

Results

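The collagen genes described here are the rows of the deposited expression table whose symbol is Col, a number, the letter a and a number, and they were 44 of 31274 gene symbols. No measured value entered that choice. By the structures that their proteins build, 11 are fibril-forming, 9 are fibril-associated collagens with interrupted triple helices (FACIT), 6 are type IV chains of basement membranes and 6 are type VI chains of beaded filaments. A further 4 are transmembrane, 3 form short-chain networks, 2 are multiplexins, 1 forms anchoring fibrils and 2 fit none of these classes. Each library was made from uterine tissue of adult FVB/N mice at an age of 2 months, which the labels call unexposed, and all groups share that strain, age and state. There were 3 libraries of mice labelled HIF2A cKO at estrus, 4 of mice labelled HIF2A cKO at diestrus, 3 of wild-type (WT) mice at estrus and 4 of WT mice at diestrus. HIF2A, the product of Epas1, is a transcription factor that low oxygen stabilises, and cKO stands for conditional knockout. The labels name neither the Cre driver nor the deleted exons, and they do not say that each library is a separate animal, so the p-values below measure only the spread between these libraries, which may be technical. RNA came from uterine tissue with its cell types mixed, so fewer cells of a type and less RNA per cell cannot be told apart in any result.

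Collagen chains fold into triple helices inside the endoplasmic reticulum, after prolines and lysines of the chains are hydroxylated. Types I, III and V assemble into the fibrils that carry tension, type IV into the sheet under epithelia, vessels and muscle cells, and type VI into beaded filaments close to cells. The uterus rebuilds its collagen in each cycle: the stroma takes up water around estrus and the loosened matrix is restored afterwards. In rodents, estrogen and progesterone set this rhythm.

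Values were FPKM, fragment numbers divided by the length of the transcript and the size of the library. This puts genes and libraries on 1 scale but does not correct for a few genes taking a larger share of 1 library. FPKM summed to between 437879 and 497688 over the genes of a library. Mir6236 alone stood at 35200 FPKM in HIF2A cKO diestrus library 4 and at no more than 9834 in any other. Log2 values of libraries of 1 group correlated at r = 0.956 to 0.994 across genes, and the number of reads behind them is unknown. Stromal fibroblast markers were present in every group: the summed FPKM of 12, Hoxa10 and Hoxa11 among them, lay between 2490 and 2560 in HIF2A cKO estrus, 2260 and 3440 in HIF2A cKO diestrus, 2160 and 2370 in WT estrus and 2540 and 3650 in WT diestrus libraries. The targeted gene was no lower in the libraries labelled HIF2A cKO. Epas1 averaged 41.2 ± 4.01 FPKM in HIF2A cKO and 32.9 ± 1.56 FPKM in WT at estrus (SD, n = 3 each, exact two-sided permutation p = 0.1, the smallest possible), and 39.5 ± 4.44 FPKM in HIF2A cKO and 34.8 ± 5.82 FPKM in WT at diestrus (SD, n = 4 each, exact two-sided permutation p = 0.257). A total over the gene does not check a label where only some exons are deleted, and every genotype direction below rests on the labels. The diestrus libraries numbered 3 stood apart from the other diestrus libraries in both genotypes. Calls that changed when both were left out are given beside the genes they touch.

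Of the 44 collagen genes, 35 reached 1 FPKM in at least 3 libraries and entered the tests. The 9 that did not were Col2a1, Col6a5, Col9a1, Col9a3, Col10a1, Col17a1, Col19a1, Col25a1 and Col28a1, and 7 of these stayed below 1 FPKM in every library. The table has gaps in 3 of the most abundant collagens: Col1a1 and Col1a2 were listed at exactly 0 in all HIF2A cKO diestrus libraries, and Col3a1 in all diestrus libraries of both genotypes. Such zeros beside high values elsewhere can be failed estimates, and those groups were left out for these genes. Of the 35 tested genes, 10 had all libraries of at least 1 group under 1 FPKM. Among these, Col4a3, Col4a4, Col13a1 and Col22a1 would not have passed the filter without the HIF2A cKO diestrus libraries, nor Col9a2 without those of WT diestrus. Col11a2 passed only through the estrus groups, and Col11a1, Col23a1 and Col26a1 only through the diestrus groups, so for all of these a difference was built into the selection.

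The collagen RNA of the uterus was dominated by types I, III, VI and IV. Summed over the 41 genes with a value in all groups, collagen FPKM was 1177 to 1306 in HIF2A cKO estrus libraries, against 3692 to 5205 in HIF2A cKO diestrus libraries. In WT it was 897 to 970 at estrus, against 2244 to 3113 at diestrus. The ranges of the 4 groups did not overlap. The 6 type VI genes held most of this sum, with 714 to 817 FPKM in HIF2A cKO estrus, 2376 to 4053 in HIF2A cKO diestrus, 482 to 544 in WT estrus and 1453 to 2070 in WT diestrus libraries. The 6 type IV genes held 271 to 286 FPKM in HIF2A cKO estrus, 345 to 506 in HIF2A cKO diestrus, 245 to 262 in WT estrus and 276 to 488 in WT diestrus libraries. Summed FPKM thus differed between stages several-fold for type VI and by a smaller factor for type IV.

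At estrus most collagen genes were lower than at diestrus, in both genotypes. In HIF2A cKO uteri 23 of the 32 genes that could be tested were lower and 2 higher (limma on log2(FPKM + 1), Benjamini-Hochberg adjusted p under 0.05), where 62% of all genes tested passed in either direction, 36.5% lower and 25.5% higher. In WT uteri 23 of 34 were lower and 1 higher, where 57.2% of all genes passed, 34.1% lower and 23% higher. The median log2 difference was -0.93 over the collagen genes and -0.08 over all genes in HIF2A cKO, and -1.24 over the collagen genes and -0.09 over all genes in WT. The 2 comparisons share no library, but both come from 1 fit with 1 estimate of the spread. Diestrus libraries of the same number were also taken to pair across genotypes, as described below. Leaving aside the 5 genes that needed 1 group to pass the filter, 19 of 27 were lower and 2 higher in HIF2A cKO, and 21 of 29 lower and 1 higher in WT. These counts still include Col11a1, Col23a1 and Col26a1, lower in both genotypes, which passed the filter only through the diestrus groups. They also include Col11a2, higher in both, which passed only through the estrus groups. Without the 2 diestrus libraries numbered 3, 25 were lower and 2 higher in HIF2A cKO, and 24 lower and 1 higher in WT. The share of all genes called without these 2 libraries is not given.

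**Figure D1:**
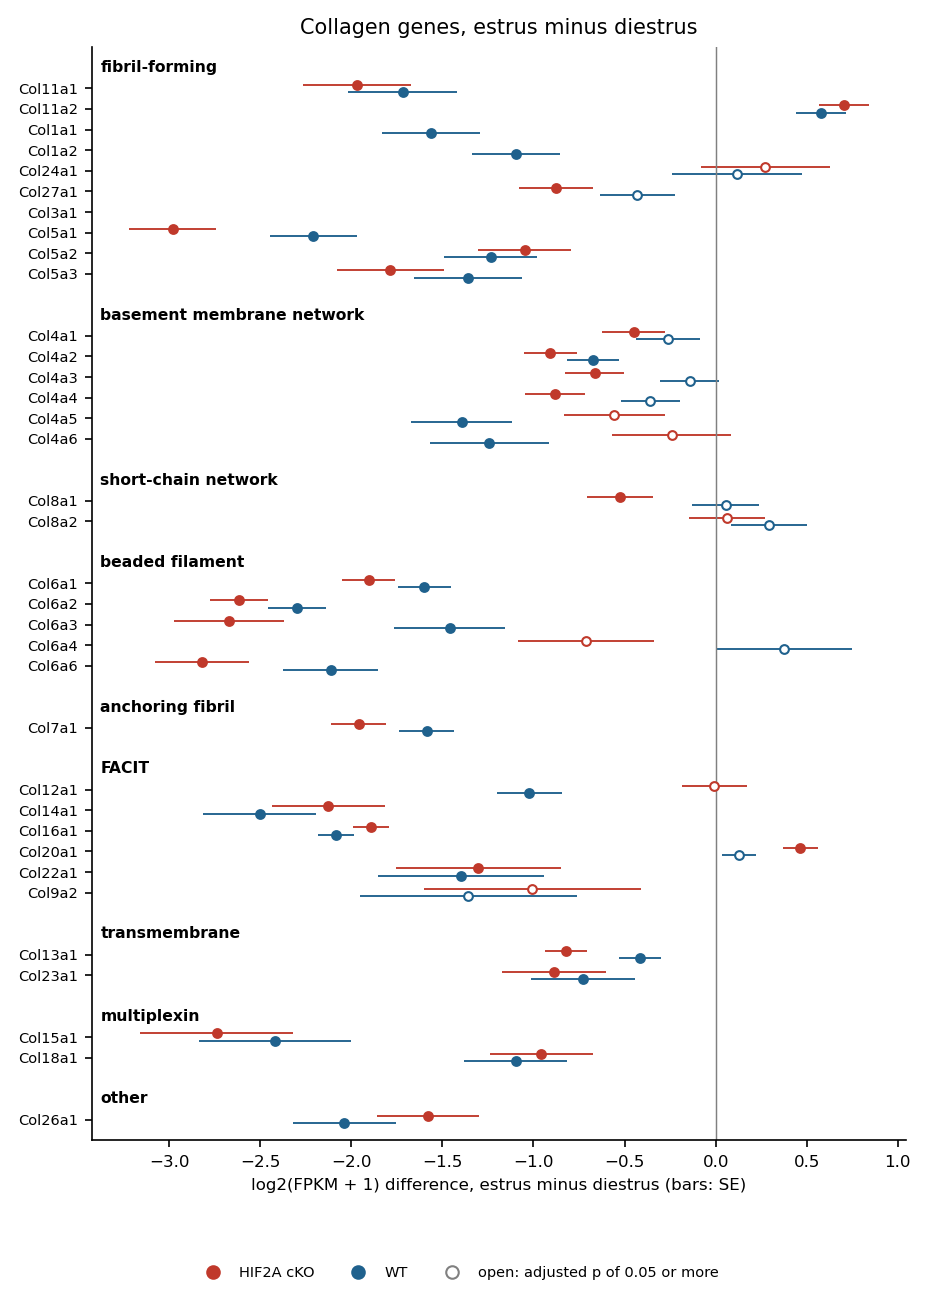
Log2(FPKM + 1) difference, estrus minus diestrus, for each tested collagen gene by class, in HIF2A cKO (red) and WT (blue), with bars of 1 SE; filled points have an adjusted p under 0.05. Most points lie left of 0, with Col5a1 at -2.98 in HIF2A cKO and Col14a1 at -2.50 in WT farthest left; a gene with a group listed at 0 has no point for that comparison, and Col3a1 has none.

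Cell type markers moved with stage as well. Summed over 10 epithelial markers, FPKM was 1430 to 1610 at estrus against 499 to 1120 at diestrus in HIF2A cKO, and 1130 to 1360 at estrus against 399 to 672 at diestrus in WT. Of the stromal fibroblast markers, 8 of 12 were lower and 2 higher in HIF2A cKO, and 9 lower and 1 higher in WT. Over all genes tested, 36.5% were lower in HIF2A cKO and 34.1% in WT. Over 8 leukocyte markers the sum was 616 to 762 at estrus against 251 to 274 at diestrus in HIF2A cKO, and 583 to 672 at estrus against 286 to 417 at diestrus in WT. Their part in the collagen differences was not tested.

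Among the fibril-forming collagens, type I could be followed between stages in WT alone. Col1a1 and Col1a2, the chains of the main tension-bearing fibril, were lower at estrus. In WT uteri Col1a1 (chromosome 11, 94936224 to 94953042, plus strand, mm10) stood at 321, 249 and 346 FPKM at estrus, against 613, 1174, 1332 and 664 at diestrus, libraries being given in the order 1, 2, 4 at estrus and 1 to 4 at diestrus throughout. The difference was -1.56 ± 0.27 log2 (SE, limma adjusted p = 8.31e-04), and the groups did not overlap. Col1a2 stood at 378, 344 and 412 FPKM in WT at estrus, against 573, 1039, 1165 and 610 at diestrus (-1.10 ± 0.24 log2, limma adjusted p = 0.00323). For both genes WT diestrus libraries 2 and 3 held the higher values and 1 and 4 the lower. In HIF2A cKO at estrus, Col1a1 stood at 456, 482 and 399 FPKM and Col1a2 at 497, 525 and 470 FPKM. Col3a1, which co-assembles with type I, stood at 342, 366 and 331 FPKM in HIF2A cKO estrus and at 271, 228 and 284 in WT estrus libraries.

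Type V chains lie in the core of type I fibrils and set their diameter. All 3 were lower at estrus in both genotypes, where 36.5% of all genes were lower in HIF2A cKO and 34.1% in WT. Col5a1 (chromosome 2, 27886425 to 28039514, plus strand) had the lowest stage difference of all collagens in HIF2A cKO. It stood at 22.5, 22.1 and 19.5 FPKM at estrus, against 223, 217, 142 and 137 at diestrus in HIF2A cKO, a difference of -2.98 ± 0.24 log2 (SE, limma adjusted p = 6.5e-07). In WT, Col5a1 stood at 17.6, 13.9 and 16.5 FPKM at estrus, against 55.3, 112, 93.9 and 60.9 at diestrus (-2.21 ± 0.24 log2, limma adjusted p = 1.16e-05). No estrus library reached any diestrus library of its genotype. A pair of gene models on the opposite strand overlap Col5a1 exons by 99 and 113 bases, and the strand setting of the counting is not given in the sources used here. Col5a2 averaged 46.4 ± 3.03 FPKM at estrus and 98.4 ± 20.1 at diestrus in HIF2A cKO, and 41.8 ± 1.76 at estrus and 107 ± 46.2 at diestrus in WT (SD, n = 3 at estrus and 4 at diestrus). Col5a3 was lower by the same test, at 3 ± 0.283 FPKM at estrus and 13 ± 2.86 at diestrus in HIF2A cKO, and 2.65 ± 0.381 at estrus and 9.18 ± 4.72 at diestrus in WT.

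The low-abundance fibrillar genes split. Col11a1 fell at estrus by 1.97 log2 in HIF2A cKO and by 1.72 log2 in WT, with estrus means of 0.303 FPKM in HIF2A cKO and 0.409 FPKM in WT. Col11a2, its partner chain in cartilage fibrils, went the other way. It stood at 1.26, 1.98 and 2.04 FPKM at estrus, against 0.748, 0.805, 0.811 and 0.388 at diestrus in HIF2A cKO (0.70 ± 0.14 log2, SE, limma adjusted p = 6.0e-04). In WT, Col11a2 stood at 1.58, 1.65 and 1.08 FPKM at estrus, against 0.618, 0.543, 0.622 and 0.709 at diestrus (0.58 ± 0.14 log2, limma adjusted p = 0.0029). Col11a2 was the only collagen called higher at estrus in both genotypes, at levels near 1 FPKM. Col27a1 was lower in HIF2A cKO (-0.88 log2, adjusted p = 0.00242) and stood at -0.43 log2 in WT (adjusted p = 0.0906). Without the diestrus libraries numbered 3, Col27a1 passed in WT as well (-0.51 log2, adjusted p = 0.0145). Col24a1 passed in neither genotype.

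Type VI genes had a median stage difference of -2.62 log2 in HIF2A cKO and -1.60 log2 in WT. Col6a1, Col6a2 and Col6a3 form the classical heterotrimer, and Col6a4, Col6a5 and Col6a6 are chains that can stand in for the third in mice. Of the 5 chains tested, 4 were lower at estrus in each genotype, where 36.5% of all genes were lower in HIF2A cKO and 34.1% in WT. Col6a1 (chromosome 10, 76708792 to 76726168, minus strand) stood at 316, 338 and 293 FPKM at estrus, against 1429, 1366, 944 and 1059 at diestrus in HIF2A cKO. In WT, Col6a1 stood at 236, 216 and 242 FPKM at estrus, against 691, 830, 616 and 689 at diestrus. Its differences were -1.90 log2 in HIF2A cKO and -1.60 log2 in WT (SE 0.15 each, limma adjusted p = 4.46e-07 in HIF2A cKO and 3.06e-06 in WT).

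Col6a2 (chromosome 10, 76595762 to 76623630, minus strand) was the most abundant type VI chain in all HIF2A cKO diestrus libraries and in 3 of the 4 WT diestrus libraries. It stood at 229, 231 and 213 FPKM at estrus, against 1704, 1633, 1091 and 1195 at diestrus in HIF2A cKO (-2.62 ± 0.16 log2, SE, limma adjusted p = 7.03e-08). In WT, Col6a2 stood at 154, 137 and 159 FPKM at estrus, against 682, 921, 686 and 692 at diestrus (-2.30 ± 0.16 log2, limma adjusted p = 3.52e-07). At estrus every library held less Col6a2 than Col6a1. Col6a3 (chromosome 1, 90765923 to 90843971, minus strand), the long chain of the trimer, stood at 55.4, 55.8 and 47.4 FPKM at estrus, against 497, 464, 188 and 314 at diestrus in HIF2A cKO (-2.67 ± 0.30 log2, limma adjusted p = 9.92e-06). In WT, Col6a3 stood at 41.8, 44 and 45.4 FPKM at estrus, against 102, 199, 111 and 97.5 at diestrus (-1.46 ± 0.30 log2, limma adjusted p = 0.00133).

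The third-chain alternatives differed among themselves. Col6a6 (chromosome 9, 105687809 to 105828160, minus strand) stood at 1.98, 2.32 and 1.71 FPKM at estrus, against 22.3, 24.6, 12.2 and 24.3 at diestrus in HIF2A cKO (-2.82 ± 0.26 log2, SE, limma adjusted p = 1.97e-06). In WT, Col6a6 stood at 1.12, 1.28 and 1.29 FPKM at estrus, against 8.54, 11.4, 4.95 and 11.3 at diestrus (-2.11 ± 0.26 log2, limma adjusted p = 3.08e-05). Its neighbour Col6a4 (chromosome 9, 105989454 to 106096783, minus strand) did not pass the stage test in either genotype. It stood at 172, 190 and 159 FPKM at estrus, against 401, 414, 141 and 279 at diestrus in HIF2A cKO (-0.71 ± 0.37 log2, limma adjusted p = 0.114). In WT, Col6a4 stood at 86.4, 83.5 and 97.2 FPKM at estrus, against 79.7, 108, 34.9 and 71.4 at diestrus (0.38 ± 0.37 log2, limma adjusted p = 0.406). In HIF2A cKO the diestrus library numbered 3 lay below all estrus libraries and the other 3 lay above them, and without that library Col6a4 was lower at estrus (-1.05 log2, adjusted p = 0.01). Col6a5, between these genes on the chromosome, stayed under 1 FPKM and was not tested.

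**Figure D2:**
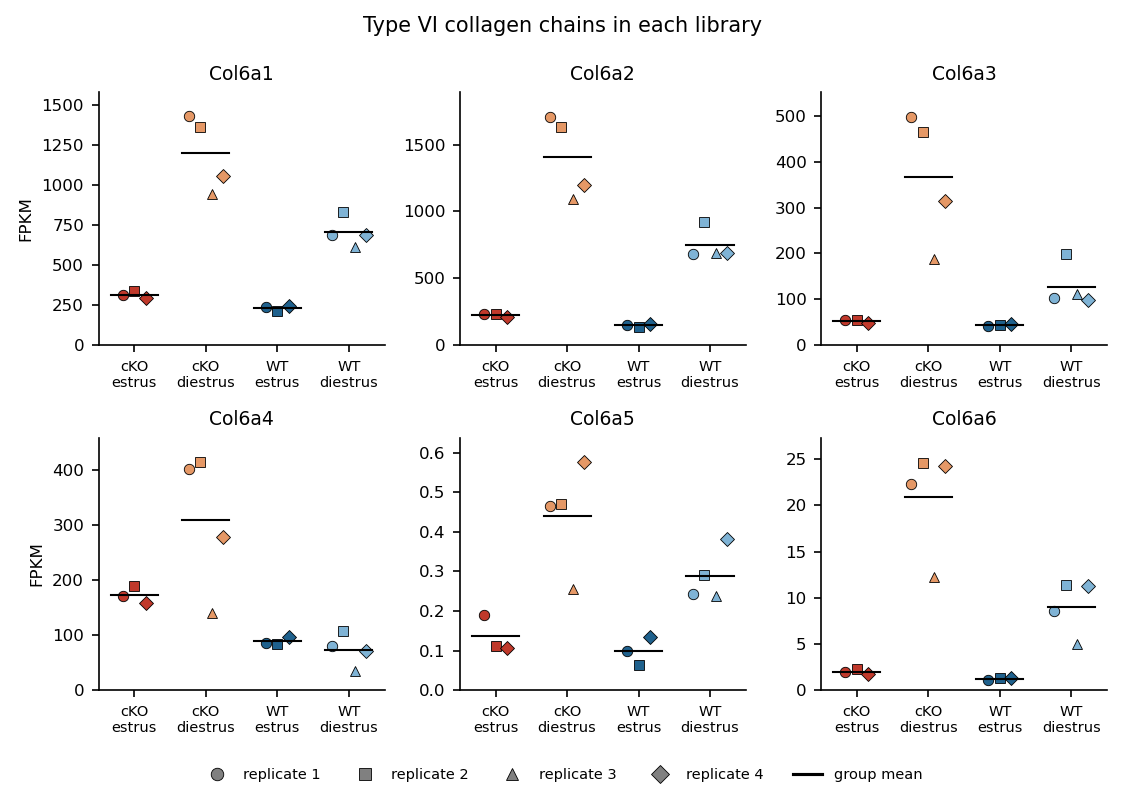
FPKM of the 6 type VI chains in each library, estrus beside diestrus for HIF2A cKO and then WT; symbols give the replicate number and lines the group means. For Col6a1, Col6a2, Col6a3 and Col6a6 all diestrus libraries lie above the estrus libraries of their genotype, whereas Col6a4 in WT stands at 83.5 to 97.2 FPKM at estrus and 34.9 to 108 FPKM at diestrus.

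The windows before the starts of the 4 abundant type VI genes are shown because these genes share a class and differ in their stage pattern. The sequences are from RefSeq promoter windows on GRCm38.p6, on the gene's own minus strand, 5′ to 3′, and capitals mark GGGCGG or its reverse complement. Each ends at the base before the GENCODE start. For Col6a1 and Col6a4 that start lies 124 and 92 bases upstream of the RefSeq start. Col6a1 covers chr10:76726169-76726294, Col6a2 chr10:76623631-76623880, Col6a3 chr1:90843972-90844221 and Col6a4 chr9:106096784-106096941.
Col6a1: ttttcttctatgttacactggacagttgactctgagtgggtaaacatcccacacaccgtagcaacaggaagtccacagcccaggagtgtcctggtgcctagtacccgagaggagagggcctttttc
Col6a2: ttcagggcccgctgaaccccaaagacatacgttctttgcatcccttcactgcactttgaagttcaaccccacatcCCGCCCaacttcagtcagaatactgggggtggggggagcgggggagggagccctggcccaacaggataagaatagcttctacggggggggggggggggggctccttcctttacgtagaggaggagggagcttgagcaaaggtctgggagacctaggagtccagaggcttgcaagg
Col6a3: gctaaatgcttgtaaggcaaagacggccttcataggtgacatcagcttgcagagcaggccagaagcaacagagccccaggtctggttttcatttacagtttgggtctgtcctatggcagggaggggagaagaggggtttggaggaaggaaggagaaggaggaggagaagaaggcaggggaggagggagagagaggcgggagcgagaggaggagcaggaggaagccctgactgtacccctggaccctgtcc
Col6a4: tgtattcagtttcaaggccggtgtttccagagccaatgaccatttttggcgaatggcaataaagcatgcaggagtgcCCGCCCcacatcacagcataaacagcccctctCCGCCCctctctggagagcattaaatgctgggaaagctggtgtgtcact
The printed window of Col6a4 held 2 copies of GGGCGG, that of Col6a2 held 1, and those of Col6a1 and Col6a3 held none. These windows differ in length, with 126 bases for Col6a1, 250 for Col6a2 and Col6a3 and 158 for Col6a4. Col6a2 has a second RefSeq start, at 76623404, and the 250 bases before that start held 3 copies. GGGCGG, the GC box, was found on either strand in 32.7% of 32851 promoter windows of 250 bases before a start and in 22 of the 38 windows of 35 collagen genes (57.9%). ACGTG, a core of the sites that hypoxia-inducible factors bind, was in none of the 4 printed windows, in 5 of the 38 collagen windows (13.2%) and in 16.6% of all windows. The full palindrome of an estrogen response element was in 0 of the 38 and in 0.0639% of all windows. CCAAT was in 34.2% of the collagen windows and 33.8% of all windows, and TATAAA in 13.2% and 12.4%. These counts describe letters in a window and no binding was measured.

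Basement membrane genes moved less with stage. The 6 type IV chains are transcribed in 3 head-to-head pairs, Col4a1 with Col4a2, Col4a4 with Col4a3, and Col4a6 with Col4a5. Of the 6, 4 were lower at estrus in HIF2A cKO and 3 in WT, and none was higher. The share of all genes tested that was lower was 36.5% in HIF2A cKO and 34.1% in WT. Col4a1 and Col4a2, the chains found in nearly all basement membranes, start within 21 bases of each other on chromosome 8 and their annotated first exons overlap by 22 bases. Col4a1 (11198423 to 11312826, minus strand) stood at 163, 172 and 165 FPKM at estrus, against 234, 231, 272 and 184 at diestrus in HIF2A cKO (-0.45 ± 0.17 log2, SE, limma adjusted p = 0.039). In WT, Col4a1 stood at 159, 147 and 146 FPKM at estrus, against 132, 199, 247 and 164 at diestrus (-0.26 ± 0.17 log2, limma adjusted p = 0.22). The HIF2A cKO call was lost when any 1 of diestrus libraries 1, 2 and 3 (-0.44, -0.44 and -0.37 log2) or any 1 of the 3 estrus libraries (-0.43 to -0.47 log2) was left out, and under either other scaling (-0.35 log2).

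Col4a2 (11312805 to 11449287, plus strand) fell further than its partner. It stood at 90.1, 93.8 and 87.7 FPKM at estrus, against 186, 177, 185 and 139 at diestrus in HIF2A cKO (-0.91 ± 0.14 log2, SE, limma adjusted p = 1.42e-04). In WT, Col4a2 stood at 87.5, 77.2 and 78.4 FPKM at estrus, against 101, 150, 157 and 119 at diestrus (-0.67 ± 0.14 log2, limma adjusted p = 0.00163). The rarer pair, Col4a3 and Col4a4, was lower at estrus in HIF2A cKO by these fits (-0.66 and -0.88 log2) and was at -0.14 and -0.36 log2 in WT, where neither passed. The X-linked pair did the converse: Col4a5 and Col4a6 were lower at estrus in WT (-1.40 and -1.24 log2) and stood at -0.56 and -0.24 log2 in HIF2A cKO, where neither passed. Without the diestrus libraries numbered 3, Col4a5 passed in HIF2A cKO too (-0.29 log2, adjusted p = 0.0386). These differences between genotypes are taken up with the interaction below.

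Anchoring fibrils, which tie epithelial basement membranes to the stroma, are made of Col7a1 (chromosome 9, 108953586 to 108984875, plus strand). It stood at 1.17, 1.37 and 1.11 FPKM at estrus, against 7.73, 9.59, 6.31 and 7.14 at diestrus in HIF2A cKO (-1.96 ± 0.15 log2, SE, limma adjusted p = 4.81e-07). In WT, Col7a1 stood at 1.48, 1.01 and 1.16 FPKM at estrus, against 6.72, 5.04, 4.31 and 6.77 at diestrus (-1.58 ± 0.15 log2, limma adjusted p = 4.53e-06). Col7a1 fell in both genotypes. Of the 10 epithelial markers 7 rose in HIF2A cKO and 10 in WT, where 25.5% of all genes rose in HIF2A cKO and 23% in WT. A link between Col7a1 and these markers was not tested.

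The FACIT collagens decorate fibrils without forming them, and Col14a1 and Col16a1 were the most abundant. Col16a1 (chromosome 4, 130047840 to 130099283, plus strand) had the smallest p of any collagen. It stood at 30.6, 29.6 and 28 FPKM at estrus, against 120, 113, 108 and 106 at diestrus in HIF2A cKO (-1.89 ± 0.10 log2, SE, limma adjusted p = 2.01e-08). In WT, Col16a1 stood at 21.8, 17.7 and 22.2 FPKM at estrus, against 80.7, 104, 95.8 and 82.6 at diestrus (-2.09 ± 0.10 log2, limma adjusted p = 1.81e-08). Col14a1 (chromosome 15, 55307750 to 55520803, plus strand) had the lowest stage difference in WT. It stood at 10.2, 8 and 9.07 FPKM at estrus, against 32.3, 33.7, 69 and 44.6 at diestrus in HIF2A cKO (-2.13 ± 0.31 log2, limma adjusted p = 7.16e-05). In WT, Col14a1 stood at 9.23, 7.94 and 7.63 FPKM at estrus, against 33, 64.3, 86.7 and 37.6 at diestrus (-2.50 ± 0.31 log2, limma adjusted p = 3.3e-05). In both genotypes diestrus library 3 held the most Col14a1.

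Col12a1, the other large FACIT of type I fibrils, followed the cycle in WT and not measurably in HIF2A cKO. It stood at 4.45, 6.6 and 5.35 FPKM at estrus, against 4.83, 5.1, 6.82 and 5.17 at diestrus in HIF2A cKO (-0.01 ± 0.18 log2, SE, limma adjusted p = 0.975). In WT, Col12a1 stood at 4.87, 6.69 and 5.62 FPKM at estrus, against 11.4, 9.16, 14.7 and 16.2 at diestrus (-1.02 ± 0.18 log2, limma adjusted p = 4.07e-04). Col20a1 stood at 1.92, 1.87 and 1.82 FPKM at estrus, against 1.22, 1.01, 1.21 and 0.899 at diestrus in HIF2A cKO (0.46 ± 0.09 log2, limma adjusted p = 9.05e-04). In WT, Col20a1 stood at 1.65, 1.48 and 1.19 FPKM at estrus, against 1.44, 1.15, 1.07 and 1.25 at diestrus (0.13 ± 0.09 log2, limma adjusted p = 0.261), and the groups overlapped. Col22a1 was lower in both genotypes (-1.30 log2 in HIF2A cKO and -1.40 log2 in WT). In HIF2A cKO its call was lost without diestrus library 3 (limma adjusted p = 0.0623) or any 1 of the estrus libraries (-1.30 to -1.31 log2), and in WT without diestrus library 2 (-1.20 log2) or estrus library 2 (-1.38 log2). Col9a2 passed in neither, and without the diestrus libraries numbered 3 it was lower in WT (-0.97 log2, adjusted p = 0.0118).

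The multiplexins Col15a1 and Col18a1, collagens of basement membrane zones whose ends are released as restin and endostatin, were both lower at estrus. Col15a1 (chromosome 4, 47208161 to 47313167, plus strand) stood at 13.9, 13.1 and 11.7 FPKM at estrus, against 102, 92.3, 114 and 66.3 at diestrus in HIF2A cKO (-2.74 ± 0.42 log2, SE, limma adjusted p = 1.04e-04). In WT, Col15a1 stood at 11, 9.29 and 10.8 FPKM at estrus, against 28.6, 86.3, 141 and 35.7 at diestrus (-2.42 ± 0.42 log2, limma adjusted p = 3.76e-04). WT diestrus libraries spanned 28.6 to 141 FPKM of Col15a1, and the lowest still exceeded every estrus library. Col18a1 (chromosome 10, 77052178 to 77166548, minus strand) stood at 51, 48.3 and 47.2 FPKM at estrus, against 70.8, 78.6, 179 and 84.2 at diestrus in HIF2A cKO (-0.96 ± 0.28 log2, limma adjusted p = 0.00995). In WT, Col18a1 stood at 57.1, 50 and 46.2 FPKM at estrus, against 84.7, 108, 168 and 95.6 at diestrus (-1.10 ± 0.28 log2, limma adjusted p = 0.00518). Diestrus library 3 was the highest in each genotype.

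The transmembrane collagens were rare. Col13a1 stood at 0.336, 0.186 and 0.242 FPKM at estrus, against 1.48, 1.28, 0.855 and 1.29 at diestrus in HIF2A cKO (-0.82 ± 0.11 log2, SE, limma adjusted p = 5.07e-05). In WT, Col13a1 stood at 0.144, 0.226 and 0.248 FPKM at estrus, against 0.422, 0.577, 0.78 and 0.664 at diestrus (-0.41 ± 0.11 log2, limma adjusted p = 0.00807). Both stages of WT lay below 1 FPKM, where log2(FPKM + 1) understates a change. Col23a1 stood at 1.16, 0.996 and 0.911 FPKM at estrus, against 3.66, 3.5, 2.42 and 1.71 at diestrus in HIF2A cKO (-0.89 ± 0.28 log2, limma adjusted p = 0.0159). In WT, Col23a1 stood at 0.82, 0.661 and 0.652 FPKM at estrus, against 1.28, 1.1, 4.49 and 1.44 at diestrus (-0.73 ± 0.28 log2, limma adjusted p = 0.0436). The WT call rested on diestrus library 3, without which the difference was -0.41 log2 (adjusted p = 0.0645), and it was also lost without any 1 of the 6 estrus libraries of either genotype (-0.70 to -0.77 log2).

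The short-chain network genes changed least. Col8a2 stood at 6.72, 6.78 and 7.17 FPKM at estrus, against 8.03, 7.48, 5.23 and 5.8 at diestrus in HIF2A cKO (0.06 ± 0.21 log2, SE, limma adjusted p = 0.809). In WT, Col8a2 stood at 5.44, 5.54 and 5.43 FPKM at estrus, against 6, 3.07, 2.85 and 6.13 at diestrus (0.29 ± 0.21 log2, limma adjusted p = 0.251). Estrus and diestrus values overlapped in both genotypes. Col8a1 stood at 0.716, 0.772 and 0.71 FPKM at estrus, against 1.51, 1.67, 1.1 and 1.74 at diestrus in HIF2A cKO (-0.53 ± 0.18 log2, limma adjusted p = 0.0239). In WT, Col8a1 stood at 1.97, 2.23 and 1.96 FPKM at estrus, against 2.96, 1.8, 0.991 and 2.37 at diestrus (0.06 ± 0.18 log2, limma adjusted p = 0.812). The HIF2A cKO call was lost without diestrus library 2 or 4 (-0.49 and -0.48 log2) or without any 1 of the estrus libraries (-0.52 to -0.54 log2).

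Outside these classes, Col26a1 (chromosome 5, 136741759 to 136883209, minus strand) stood at 0.69, 0.594 and 0.879 FPKM at estrus, against 2.77, 3.4, 5.44 and 5.47 at diestrus in HIF2A cKO (-1.58 ± 0.28 log2, SE, limma adjusted p = 3.5e-04). In WT, Col26a1 stood at 1.33, 0.875 and 0.664 FPKM at estrus, against 8.99, 4.47, 4.8 and 11.6 at diestrus (-2.04 ± 0.28 log2, limma adjusted p = 7.48e-05), with no overlap in either genotype. Col28a1, not tested, stood at 0.559, 0.266 and 0.446 FPKM at estrus, against 0.211, 0.251, 1.64 and 0.297 at diestrus in HIF2A cKO. In WT, Col28a1 stood at 0.382, 0.264 and 0.27 FPKM at estrus, against 0.412, 0.857, 1.63 and 0.541 at diestrus. The 2 values above 1 FPKM were those of the diestrus libraries numbered 3.

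At diestrus, several collagen genes differed between HIF2A cKO and WT uteri. Of 32 tested, 11 were higher and 3 lower in libraries labelled HIF2A cKO (limma adjusted p under 0.05), where 23.8% of all genes tested passed in either direction, 13.8% higher and 10% lower. The median difference was 0.32 log2 over the collagen genes and 0.02 over all genes. All 5 tested type VI chains were among the higher genes, with Col5a1, Col4a2, Col4a3, Col4a4, Col13a1 and Col16a1. Col4a3, Col4a4 and Col13a1 entered the test through HIF2A cKO diestrus, where they are high. Leaving aside the 5 genes that needed 1 group to pass the filter, 8 of 27 were higher and 3 lower. The lower genes were Col12a1, Col4a5 and Col4a6. This comparison uses the same diestrus libraries as the stage comparisons above. Without the libraries numbered 3, 15 were higher and 6 lower: Col4a1, Col11a1, Col15a1 and Col23a1 (0.40, 0.51, 0.92 and 0.76 log2) joined the higher genes, and Col8a1, Col18a1 and Col26a1 (-0.34, -0.30 and -0.89 log2) the lower ones. In the diestrus libraries alone without those numbered 3, 8 were higher and 3 lower. For both fits without these libraries the share of all genes called is not given, so their counts are not set against other genes.

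These counts depended on the estimate of the spread. The median SD of a collagen gene on the log2 scale was 0.333 over the HIF2A cKO diestrus libraries and 0.48 over the WT diestrus libraries, against 0.092 in HIF2A cKO estrus and 0.122 in WT estrus. When only the 8 diestrus libraries were fitted, 3 genes were higher and 1 lower, where 2.81% of all genes passed, 1.72% higher and 1.09% lower. Those 4 genes, Col6a2, Col6a4, Col4a4 and Col12a1, were the only ones that passed in every alternative in which they were tested, Col4a4 among them having needed HIF2A cKO diestrus to enter the test. Residuals of same-number diestrus libraries correlated between the 2 genotypes at r = 0.321, 0.115, 0.622 and 0.217 for numbers 1 to 4. HIF2A cKO library 2 correlated better with WT library 1 (0.262). With the number as a block in the diestrus libraries alone 8 were higher and 3 lower, and the share of all genes called with that block is not given.

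**Figure D3:**
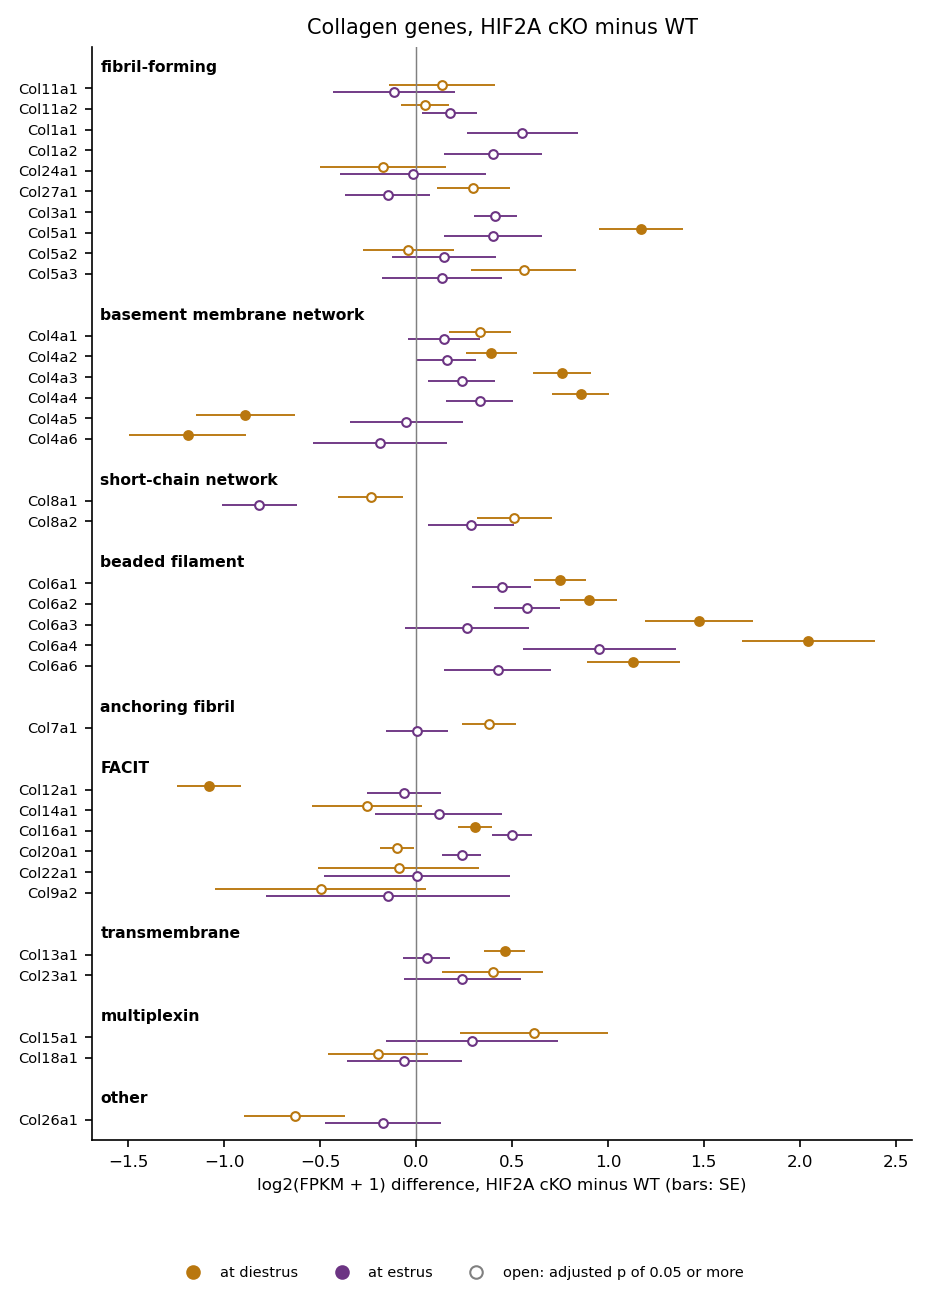
Log2(FPKM + 1) difference, HIF2A cKO minus WT, for each tested collagen gene by class, at diestrus (ochre) and at estrus (purple), with bars of 1 SE; filled points have an adjusted p under 0.05 in the fit of all 14 libraries. Filled points occur at diestrus only, and the 5 type VI genes lie between 0.75 and 2.04 there and between 0.27 and 0.96 at estrus; no diestrus point is drawn for Col1a1, Col1a2 and Col3a1.

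Col6a4 showed the largest rise. Its diestrus values in HIF2A cKO, 401, 414, 141 and 279 FPKM, all exceeded those in WT, 79.7, 108, 34.9 and 71.4 FPKM, a difference of 2.04 ± 0.35 log2 (SE, limma adjusted p = 0.00396, and 0.0466 in the diestrus libraries alone). Library 3 was the lowest in each genotype. Col6a3 averaged 366 ± 143 FPKM in HIF2A cKO and 128 ± 48.2 FPKM in WT (SD, n = 4 each), with a difference of 1.48 ± 0.28 log2 (limma adjusted p = 0.00582, and 0.0537 in the diestrus libraries alone). Its groups overlapped, since HIF2A cKO library 3 at 188 FPKM lay under WT library 2 at 199 FPKM. Col6a6 averaged 20.9 ± 5.84 FPKM in HIF2A cKO and 9.05 ± 3.04 FPKM in WT (1.13 ± 0.24 log2, limma adjusted p = 0.0079, and 0.0595 in the diestrus libraries alone), with no overlap.

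The 2 main chains differed by less and did not overlap. Col6a2 averaged 1406 ± 308 FPKM in HIF2A cKO and 746 ± 117 FPKM in WT (SD, n = 4 each), a difference of 0.90 ± 0.15 log2 (limma adjusted p = 0.00378, and 0.0485 in the diestrus libraries alone). Col6a1 averaged 1199 ± 235 FPKM in HIF2A cKO and 706 ± 89.7 FPKM in WT, a difference of 0.75 ± 0.13 log2 (limma adjusted p = 0.00476, and 0.0535 in the diestrus libraries alone). The lowest HIF2A cKO value of Col6a1, 944 FPKM, lay above the highest WT value, 830 FPKM. Opposite-strand gene models overlap exons of Col6a4 by up to 127 bases and of Col6a6 by 63 bases.

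Col5a1 was the only fibril-forming gene called at diestrus. Its 4 HIF2A cKO values, 137 to 223 FPKM, lay above the 4 WT values, 55.3 to 112 FPKM (1.17 ± 0.22 log2, SE, limma adjusted p = 0.00571, and 0.0531 in the diestrus libraries alone). Its partners did not pass: Col5a2 was at -0.04 and Col5a3 at 0.56 log2. Col1a1, Col1a2 and Col3a1 could not be compared at diestrus.

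The type IV pairs went in different directions at diestrus. Col4a3 and Col4a4, chains of the specialised membranes of kidney glomerulus, lung and inner ear, were higher in HIF2A cKO. Col4a4 (chromosome 1, 82448423 to 82586849, minus strand) stood at 3.31, 3.07, 2.02 and 1.54 FPKM in HIF2A cKO and 0.703, 1.13, 0.976 and 0.746 FPKM in WT (0.86 ± 0.15 log2, SE, limma adjusted p = 0.00443, and 0.0475 in the diestrus libraries alone). Col4a3 (chromosome 1, 82586921 to 82722059, plus strand) stood at 2.06, 2.07, 1.28 and 0.918 FPKM in HIF2A cKO and 0.323, 0.751, 0.614 and 0.338 FPKM in WT (0.76 ± 0.15 log2, limma adjusted p = 0.00659, and 0.0557 in the diestrus libraries alone). For both genes every HIF2A cKO library lay above every WT library, libraries 1 and 2 highest, at levels near 1 FPKM. An opposite-strand gene overlaps a Col4a3 exon by 289 bases.

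The starts of these 2 genes face away from each other with 71 bases between them, shown because both genes share this stretch and moved together. It covers chr1:82586850-82586920 (RefSeq, GRCm38.p6) and is written on the minus strand, the strand of Col4a4, 5′ to 3′. These bases held no GGGCGG or ACGTG on either strand. The longer promoter window of Col4a4, which runs on past the start of Col4a3, held 1 copy of ACGTG, just outside this stretch.
Between Col4a4 and Col4a3: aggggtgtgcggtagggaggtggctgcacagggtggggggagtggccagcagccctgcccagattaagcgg
The stretch is 69% G and C.

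Col4a5 and Col4a6, whose chains form the second network of smooth muscle and epithelial membranes, were lower in HIF2A cKO at diestrus. Col4a6 (chromosome X, 141165403 to 141474076, minus strand) stood at 5.56, 5.39, 14.8 and 5.32 FPKM in HIF2A cKO and 15.5, 11.7, 29.1 and 16.9 FPKM in WT (-1.19 ± 0.30 log2, SE, limma adjusted p = 0.0161, and 0.0773 in the diestrus libraries alone). Col4a5 (chromosome X, 141475385 to 141689234, plus strand) stood at 14.6, 14.1, 31 and 14.5 FPKM in HIF2A cKO and 26.8, 25.4, 53.6 and 33.1 FPKM in WT (-0.89 ± 0.26 log2, limma adjusted p = 0.0268, and 0.105 in the diestrus libraries alone). In each genotype library 3 was far above the other 3, and HIF2A cKO library 3 lay within the WT range. Without HIF2A cKO library 1 or 2 the Col4a6 call was lost (-1.09 and -1.08 log2, adjusted p = 0.0524 and 0.0576). The Col4a5 call was lost without HIF2A cKO library 1, 2 or 4 (-0.81, -0.79 and -0.80 log2) or WT library 3 or 4 (-0.66 and -0.89 log2).

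**Figure D4:**
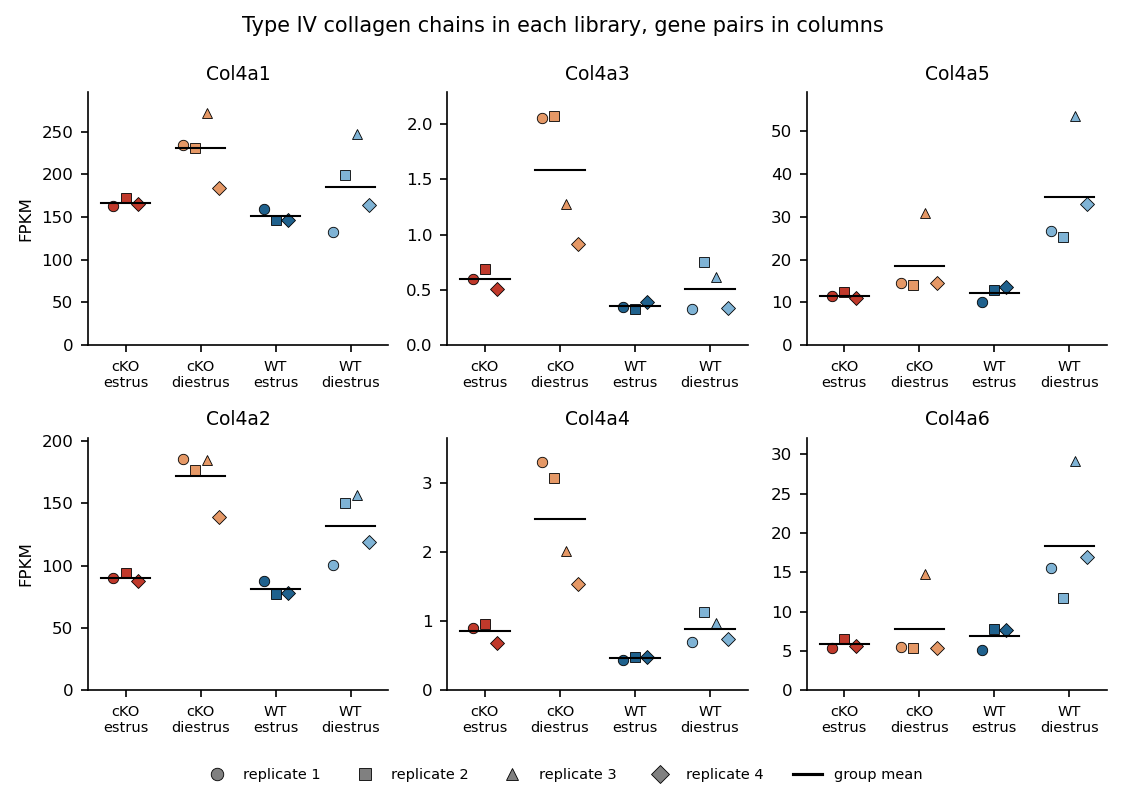
FPKM of the 6 type IV chains in each library, with the gene pairs that share a start region in columns; symbols give the replicate number and lines the group means. At diestrus Col4a3 and Col4a4 are higher in HIF2A cKO than in WT, Col4a5 and Col4a6 are lower in 3 of 4 libraries than any WT library, and Col4a1 and Col4a2 overlap between genotypes.

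Col4a2 averaged 172 ± 22.4 FPKM in HIF2A cKO and 132 ± 26.7 FPKM in WT at diestrus (SD, n = 4 each), a difference of 0.39 ± 0.13 log2 at an adjusted p of 0.0495 by limma. That call was lost in most alternatives, among them leaving out any 1 of 11 libraries (0.27 log2 without WT diestrus library 1 to 0.39 log2 without an estrus library). Col4a1 stood at 0.34 log2 (adjusted p = 0.144), and passed with the replicate number as a block in all 14 libraries (0.34 log2, adjusted p = 0.0476). Under that block Col7a1 (0.38 log2, adjusted p = 0.031) and Col8a2 (0.51 log2, adjusted p = 0.0309) passed as well, against adjusted p of 0.0652 and 0.07 without it. None of the 3 passed with the block in the diestrus libraries alone, where the numbers were taken to pair the libraries.

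Among FACIT genes, Col12a1 (chromosome 9, 79598991 to 79718831, minus strand) was lower in HIF2A cKO at diestrus. Its 4 values there, 4.83 to 6.82 FPKM, lay under the 4 WT values, 9.16 to 16.2 FPKM (-1.08 ± 0.17 log2, SE, limma adjusted p = 0.00314, and 0.0389 in the diestrus libraries alone). Col16a1 was higher, at 112 ± 6.41 FPKM in HIF2A cKO and 90.7 ± 10.9 FPKM in WT (SD, n = 4 each, 0.31 ± 0.09 log2, limma adjusted p = 0.0292). That call was lost without WT library 1 or 4 (0.26 and 0.27 log2) or HIF2A cKO library 1 or 2 (0.27 and 0.30 log2), and with the block in the diestrus libraries alone (adjusted p = 0.0768). Scaling by quantile normalization also ended it (0.19 log2, limma adjusted p = 0.0997). Col13a1 averaged 1.23 ± 0.264 FPKM in HIF2A cKO and 0.611 ± 0.151 FPKM in WT (0.46 ± 0.11 log2, limma adjusted p = 0.0107, and 0.0716 with that block), with no overlap. Neither multiplexin passed: Col15a1 was at 0.61 and Col18a1 at -0.20 log2. Library 3 decided both: without that of WT Col15a1 was higher (1.02 log2, adjusted p = 0.0349), without that of HIF2A cKO Col18a1 was lower (-0.50 log2, adjusted p = 0.0495), and without both libraries each passed (0.92 and -0.30 log2, adjusted p = 0.0441 and 0.0458).

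Some cell type markers were also called between genotypes at diestrus, where 23.8% of all genes passed, 13.8% higher and 10% lower. Of 10 epithelial markers 3 were higher in HIF2A cKO and none lower: Elf3 (1.71 log2, adjusted p = 0.0126), Krt7 (1.17 log2, adjusted p = 0.0131) and Cldn7 (0.99 log2, adjusted p = 0.0279). The median over these 10 was 0.48 log2, and their summed FPKM was 499 to 1120 in HIF2A cKO and 399 to 672 in WT. None of 12 stromal fibroblast markers was higher in HIF2A cKO and 3 were lower, among them Hoxa10 (-0.81 log2, adjusted p = 0.0168) and Hoxa11 (-0.75 log2, adjusted p = 0.0409). Of 10 smooth muscle markers 1 was lower, of 8 endothelial markers 1 was higher and of 5 mesothelial markers 1 was lower. Of 6 pericyte markers 1 was higher and 1 lower, and none of 8 leukocyte markers was called. Counted in either direction, the called shares of these lists lay near or below the 23.8% of all genes, or rest on few markers. By direction, 3 of 10 epithelial markers higher stand against 13.8% of all genes. The 3 of 12 stromal markers lower stand against 10%, with a median of -0.22 log2 over the 12. Smooth muscle marker sums were 4830 to 7180 FPKM in HIF2A cKO and 4750 to 6090 in WT. The part of these markers in the collagen differences was not tested.

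At estrus no collagen gene passed between HIF2A cKO and WT in the fit of all libraries (limma, 0 of 35, where 0.105% of all genes passed, 0.07% higher and 0.035% lower). Of the 35, 7 had an unadjusted p under 0.05, as had 1054 of all 14282 genes tested. The estrus libraries varied little, and when those 6 were fitted alone 4 genes were higher and 1 lower in HIF2A cKO, where 2.32% of all genes passed, 1.33% higher and 0.994% lower. Col6a4 again differed most, at 159 to 190 FPKM in HIF2A cKO and 83.5 to 97.2 FPKM in WT (0.96 log2, limma adjusted p = 0.00618 in the estrus libraries alone and 0.622 in all libraries). Col6a2 (0.58 log2, adjusted p = 0.0152), Col16a1 (0.50 log2, adjusted p = 0.0412) and Col6a1 (0.45 log2, adjusted p = 0.0344) were also higher in the estrus libraries alone. For these 4 genes the groups did not overlap, and the share of all genes without overlap between these groups is not given. Col8a1 was lower, at 0.71 to 0.772 FPKM in HIF2A cKO and 1.96 to 2.23 FPKM in WT (-0.82 log2, adjusted p = 0.00593). In the fit of all libraries but the diestrus ones numbered 3, Col6a4 and Col8a1 passed too (adjusted p = 0.0348 and 0.0126).

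The other abundant fibrillar genes could be compared between genotypes at estrus. Col1a1 averaged 446 ± 42.7 FPKM in HIF2A cKO and 305 ± 50.3 FPKM in WT (SD, n = 3 each, 0.55 log2, limma adjusted p = 0.0781 in the estrus libraries alone). Col1a2 averaged 498 ± 27.4 FPKM in HIF2A cKO and 378 ± 34.3 FPKM in WT (0.40 log2, limma adjusted p = 0.0568). Col3a1 averaged 346 ± 17.5 FPKM in HIF2A cKO and 261 ± 29.3 FPKM in WT (0.41 log2, limma adjusted p = 0.0644). In each of the 3 genes the HIF2A cKO libraries lay above the WT libraries without passing the test.

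Whether the stage difference itself depended on genotype was tested as an interaction, the estrus minus diestrus difference in HIF2A cKO minus that in WT. None of 32 collagen genes passed (limma, where 0.035% of all genes passed, 0.014% higher and 0.021% lower). Of the 32, 8 had an unadjusted p under 0.05, as had 2511 of all 14278 genes tested. The largest differences of these 8 collagen genes were Col6a3 (-1.21 ± 0.43 log2, SE, adjusted p = 0.201), Col12a1 (1.02 ± 0.25 log2, adjusted p = 0.12) and Col5a1 (-0.77 ± 0.34 log2, adjusted p = 0.265). With the replicate number as a block 3 were higher and 2 lower: Col12a1, Col4a5 and Col4a6 (1.02, 0.84 and 1.00 log2, adjusted p = 0.0424, 0.0224 and 0.0398) and Col6a4 and Col6a6 (-1.09 and -0.71 log2, adjusted p = 0.0241 and 0.0228). That block also joins libraries across stages, where residuals of same-number libraries correlated at r = -0.135 to 0.018 and the numbers were not taken to pair them. Without the 2 diestrus libraries numbered 3 the counts were 3 higher (Col12a1, Col4a5 and Col4a6) and 4 lower (Col6a3, Col6a4, Col6a6 and Col13a1), and without HIF2A cKO library 3 alone 3 higher and 1 lower. The genes called in a stage in 1 genotype and not in the other, such as Col4a5 in WT, are therefore not shown to differ between genotypes. Shares of all genes called in the interaction with the block or with libraries left out are not given.

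Ratios between chains within a library are free of the library total, and several separated the stages. Col6a2 over Col6a1 was 0.682 to 0.728 at estrus against 1.13 to 1.2 at diestrus in HIF2A cKO, and 0.633 to 0.656 at estrus against 0.988 to 1.11 at diestrus in WT. Col6a4 over Col6a1 ran the other way, at 0.542 to 0.562 at estrus against 0.149 to 0.303 at diestrus in HIF2A cKO and 0.366 to 0.402 at estrus against 0.0567 to 0.13 at diestrus in WT. At both stages Col6a4 over Col6a1 was higher in every HIF2A cKO library than in every WT library of that stage. Col4a2 over Col4a1 was 0.531 to 0.553 at estrus against 0.682 to 0.794 at diestrus in HIF2A cKO, and 0.526 to 0.551 at estrus against 0.639 to 0.763 at diestrus in WT, so the stages separated and the genotypes did not.

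Col5a1 over Col5a2 was 0.421 to 0.517 at estrus against 1.12 to 2.4 at diestrus in HIF2A cKO, and 0.338 to 0.434 at estrus against 0.564 to 0.939 at diestrus in WT. Col1a1 over Col1a2, chains that join in a fixed proportion in the main form of type I collagen, was 0.848 to 0.918 in HIF2A cKO estrus and 0.724 to 0.849 in WT estrus libraries, and 1.07 to 1.14 in WT diestrus libraries. Not every ratio examined separated the stages. In WT, Col6a3 over Col6a1 was 0.177 to 0.204 at estrus and 0.141 to 0.24 at diestrus. Col4a5 over Col4a6 overlapped in both genotypes, in WT at 1.65 to 1.96 at estrus and 1.73 to 2.17 at diestrus. Col4a4 over Col4a3 overlapped in HIF2A cKO, at 1.35 to 1.51 at estrus and 1.49 to 1.68 at diestrus. The ratios are given as descriptions, and shared reads between overlapping exons of Col4a1 and Col4a2 enter theirs.

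**Figure D5:**
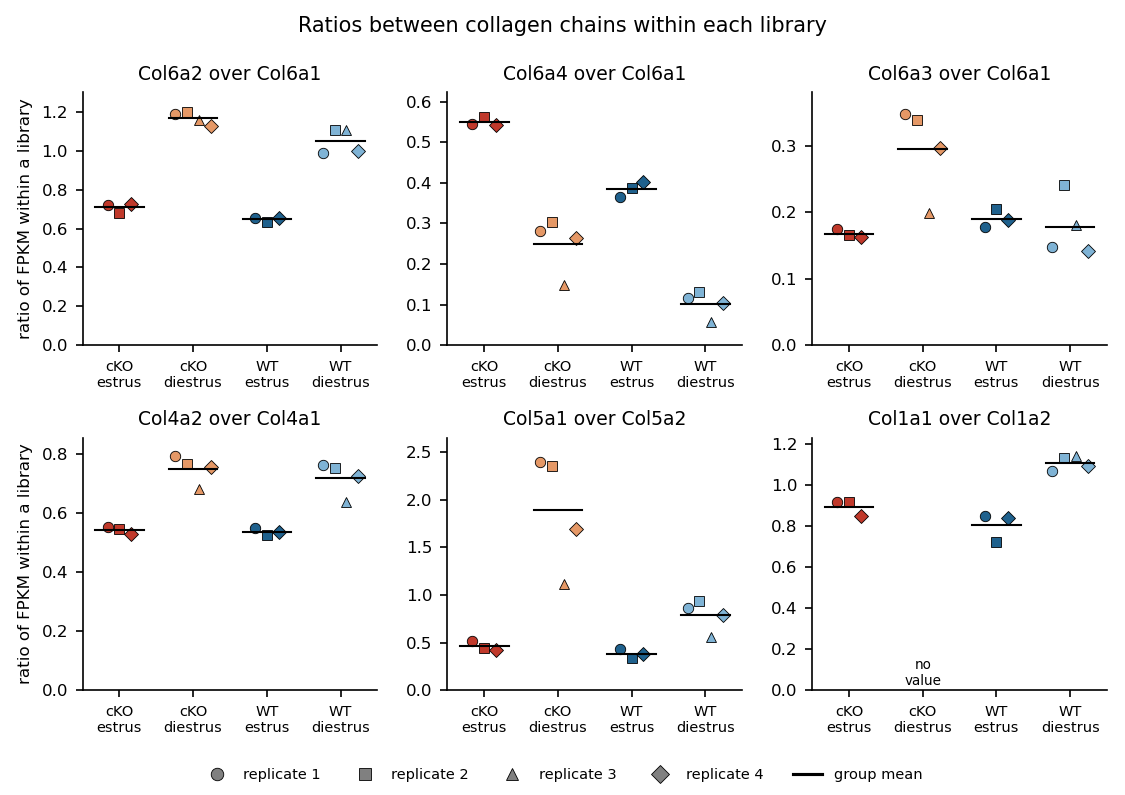
Ratio of FPKM between 2 collagen chains within each library, for 6 pairs, estrus beside diestrus in HIF2A cKO and then WT; symbols give the replicate number and lines the group means. Col6a2 over Col6a1 and Col4a2 over Col4a1 separate estrus from diestrus, and Col6a4 over Col6a1 separates all 4 groups; Col1a1 over Col1a2 has no value in HIF2A cKO diestrus.

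Most enzymes that prepare collagen chains were lower at estrus too. Of 15 genes for hydroxylation and glycosylation of the chains, 13 were lower and 1 higher at estrus in HIF2A cKO, and 12 lower and 1 higher in WT (limma adjusted p under 0.05, with median differences of -0.83 log2 in HIF2A cKO and -0.84 log2 in WT). Over all genes tested, 36.5% were lower in HIF2A cKO and 34.1% in WT. P3h1, a prolyl 3-hydroxylase listed under its older symbol Lepre1, averaged 9.39 ± 0.366 FPKM at estrus and 41.7 ± 9.36 at diestrus in HIF2A cKO, and 8.54 ± 0.414 at estrus and 27.6 ± 5.98 at diestrus in WT (SD, n = 3 at estrus and 4 at diestrus). Plod2, which hydroxylates lysines that later form cross-links, fell by 1.92 log2 in HIF2A cKO, and P4ha3, a prolyl 4-hydroxylase subunit, fell by 1.44 log2 in WT. P3h2 rose by 0.89 log2 in HIF2A cKO and by 0.88 log2 in WT. At diestrus 8 of the 15 were higher in HIF2A cKO than in WT and none lower, where 13.8% of all genes were higher, led by Plod2 (91.8 ± 30.7 FPKM in HIF2A cKO and 44.7 ± 13.9 FPKM in WT, 0.99 log2, adjusted p = 0.0138) and P4ha3 (0.95 log2, adjusted p = 0.015).

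Of 10 genes for folding and export, 7 were lower at estrus in each genotype, against the same 36.5% of all genes in HIF2A cKO and 34.1% in WT, with 1 higher in WT, Mia2 (0.36 log2). Serpinh1, the collagen-specific chaperone HSP47, averaged 228 ± 7.8 FPKM at estrus and 1085 ± 209 at diestrus in HIF2A cKO, and 206 ± 1.71 at estrus and 621 ± 142 at diestrus in WT. Fkbp10, a peptidyl-prolyl isomerase of the same compartment, fell by 2.07 log2 in HIF2A cKO and by 1.70 log2 in WT. At diestrus 6 of the 10 were higher in HIF2A cKO and none lower (13.8% of all genes were higher), led by Serpinh1 (0.81 log2, adjusted p = 0.00656) and Creb3l1, a stress transducer of the endoplasmic reticulum (0.74 log2, adjusted p = 0.00691).

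Of 7 tested genes for propeptide removal, 4 were lower at estrus in HIF2A cKO, and 3 were lower and 1 higher in WT. That is near the share of all genes called in either direction, 62% in HIF2A cKO and 57.2% in WT. Pcolce, an enhancer of the procollagen C-proteinase, fell by 1.30 log2 in HIF2A cKO and by 1.58 log2 in WT, and the N-proteinase Adamts3 fell by 1.06 log2 in HIF2A cKO and by 0.98 log2 in WT. At diestrus Pcolce2 (1.19 log2, adjusted p = 0.00637) and Adamts2 (0.73 log2, adjusted p = 0.0168) were higher in HIF2A cKO. Among the 3 tested cross-linking oxidases, Lox rose at estrus by 0.94 log2 in HIF2A cKO and by 1.44 log2 in WT, while Loxl1 fell by 0.63 log2 in HIF2A cKO and 0.58 in WT and Loxl3 by 0.29 log2 in HIF2A cKO and 0.53 in WT.

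Most genes for collagen breakdown were higher at estrus. Of 5 tested, 4 rose at estrus in each genotype, and Fap fell in WT by 0.56 log2. Over all genes 25.5% were higher in HIF2A cKO and 23% in WT. Mmp14, a membrane-bound collagenase, averaged 528 ± 24.3 FPKM at estrus and 174 ± 19.3 at diestrus in HIF2A cKO, and 528 ± 28.2 at estrus and 206 ± 43.8 at diestrus in WT. Ctsk, the collagen-degrading cathepsin K, rose by 1.53 log2 in HIF2A cKO and by 1.54 log2 in WT. At diestrus Mmp2 was lower in HIF2A cKO (-0.64 log2, adjusted p = 0.0276). Of 11 tested receptors 4 rose and 1, Cd44, fell at estrus in each genotype, no larger a share than the 62% of all genes called in HIF2A cKO and 57.2% in WT, with the integrin chains Itga11 (1.55 log2 in HIF2A cKO and 1.23 in WT) and Itga2 (0.93 log2 in HIF2A cKO and 1.70 in WT) leading, and Itga2 was also higher in HIF2A cKO at diestrus (0.71 log2, adjusted p = 0.00713).

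The 14 tested matrix proteins that bind fibrils were mixed. At estrus 6 rose and 3 fell in HIF2A cKO, and 3 rose and 4 fell in WT, and 1 was higher and 1 lower in HIF2A cKO at diestrus. These shares are near or below those of all genes (62% and 57.2% for stage in HIF2A cKO and WT, 23.8% for genotype at diestrus). Thbs2, a thrombospondin that limits fibril growth, rose by 2.71 log2 in HIF2A cKO and by 2.16 log2 in WT, and Prelp rose by 1.81 log2 in HIF2A cKO and by 1.05 log2 in WT. Sparc, a collagen-binding matricellular protein, fell by 1.56 log2 in HIF2A cKO and fell by 1.46 log2 in WT, and Lum fell by 0.95 log2 in HIF2A cKO and Fmod by 1.69 log2 in WT. At diestrus Fn1 was higher (0.32 log2, adjusted p = 0.0484) and Postn lower (-0.84 log2, adjusted p = 0.0418) in HIF2A cKO. No gene of these 7 lists passed between genotypes at estrus or in the interaction in the fit of all libraries, where limma also called no collagen gene.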

How the data were processed

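The 14 RNA sequencing libraries of mouse uterus were grouped by genotype and cycle stage from their labels. The authors deposited 1 table of FPKM values for 31274 gene symbols. Per the submitters' processing notes, TopHat2 2.0.4, Cufflinks 2.0.2 and the genome build mm10 were used. The sources used here give no annotation, options or strand setting, and no read counts were used. Depth is therefore unknown and no interval for counting error is printed, which matters most for low values. In 12 libraries the steps of low values gave a relative depth from 0.713 to 1.35 of WT diestrus library 1.

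The test was limma (version 3.58.1, R 4.3.3) on log2(FPKM + 1). It used the 14285 genes that reached 1 FPKM in 3 or more libraries, fitted all 14 libraries together with 4 group means and a trended prior variance, and adjusted p over all genes tested (Benjamini-Hochberg, threshold 0.05). A group listed at 0 throughout while another averaged over 50 FPKM was set to missing for that gene, so Col1a1, Col1a2 and Col3a1 were fitted on the remaining libraries. Log2 differences on this scale understate changes of low genes. On simulated data, changes of 1 log2 were recovered for 94% of genes in the stage comparison in HIF2A cKO, 91% in WT, 95% between genotypes at diestrus and 89% at estrus (14026 genes). False calls were 3.02%, 4.04%, 3.02% and 6.5% of the calls, in the same order. The simulation gave a gene the same spread in all groups, whereas collagen genes here varied more at diestrus than at estrus. These shares therefore do not say how many real differences were missed. Epas1 was also tested by an exact two-sided permutation test. The table's symbols were matched to coordinates (1-based, GENCODE M21, mm10) for all 44 collagen genes and to RefSeq promoters for 35, and 13 of the 44 have exons that overlap those of other genes, 10 on the opposite strand.

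The collagen genes, gene lists and tests were chosen with earlier results of these data known. Values in every library are given for the 2 most abundant genes of each class and for the 2 largest rises and falls past the threshold in each comparison, and for a few further type IV genes and Col3a1 chosen after their values were seen. Of the pathway lists, the 2 largest called changes in each direction are named. Each result was recomputed with another pseudocount, filter or scaling, an untrended or robust prior, weighted libraries, fits of the groups compared alone, a block for the replicate number, zeros kept, and libraries left out. The fit of the diestrus libraries alone without those numbered 3, and the block in those libraries or with another scaling, were added after the data were seen. Replicate numbers were taken to pair the diestrus libraries, since the residuals of all 4 same-number pairs correlated above 0.1 (0.321, 0.115, 0.622 and 0.217), although HIF2A cKO library 2 correlated best with WT library 1. At estrus (0.08, 0.096 and -0.047) and between stages they were not.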

Additional observations from a re-analysis of the deposited data

Results flagged for a closer look

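In groups of 4 libraries, 11 collagen values and 1 of Epas1 lay far from the other 3 of their group, with a gap, as a share of the group's range, above Dixon's 95% critical value. Chance flags about 1 in 20 groups, and 66 groups of collagen values were examined. The HIF2A cKO diestrus library numbered 3 was the high one for 6 collagens: Col4a5 at 31 FPKM (others 14.1 to 14.6), Col4a6 at 14.8 FPKM (others 5.32 to 5.56), Col9a2 at 8.5 FPKM (others 0.636 to 0.835), Col12a1 at 6.82 FPKM (others 4.83 to 5.17), Col18a1 at 179 FPKM (others 70.8 to 84.2) and Col22a1 at 4.07 FPKM (others 1.01 to 1.33). The WT diestrus library numbered 3 was the high one for Col23a1 at 4.49 FPKM (others 1.1 to 1.44), Col24a1 at 4.09 FPKM (others 0.765 to 0.991) and Epas1 at 43.5 FPKM (others 31.2 to 32.7). WT diestrus library 2 was high for Col6a2 at 921 FPKM (others 682 to 692) and Col6a3 at 199 FPKM (others 97.5 to 111). HIF2A cKO diestrus library 4 was low for Col11a2 at 0.388 FPKM (others 0.748 to 0.811). What these libraries share was not tested.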

How the results depend on the processing

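No called collagen difference reversed under any of the alternatives in which it was tested. Of the calls, 22 of 25 held throughout in the stage comparison of HIF2A cKO, 22 of 24 in that of WT, and 4 of 14 between genotypes at diestrus. With the filter at 5 FPKM no collagen was higher at estrus in either genotype (0), since Col11a2 and Col20a1 were no longer tested. With zeros kept as deposited 5 were higher at estrus in HIF2A cKO and 2 in WT, 5 were lower in HIF2A cKO than in WT at diestrus, and 2 were higher in the interaction. Without a filter 3 were higher at estrus in WT. Library weights gave 19 higher and 5 lower at diestrus, 6 higher and 1 lower at estrus, and 5 higher and 12 lower in the interaction. Fits of the groups compared alone gave 3 higher and 1 lower at diestrus, and 4 higher and 1 lower at estrus. Without both diestrus libraries numbered 3, 15 were higher and 6 lower at diestrus, 1 was higher and 1 lower at estrus, and 3 were higher and 4 lower in the interaction. Apart from the fits of the groups compared alone, the share of all genes called under each setting is not given. These counts show how the calls moved, and not whether collagen genes moved more than other genes. Beyond the constructions named, the cause of these shifts was not tested.

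Leaving out 1 library at a time gave 20 to 24 lower and 2 higher at estrus in HIF2A cKO, 21 to 25 lower and 1 higher in WT, 9 to 14 higher and 1 to 5 lower between genotypes at diestrus, 0 higher and 0 to 1 lower at estrus, and 0 to 3 higher and 0 to 1 lower in the interaction. The 1 lower at diestrus came without HIF2A cKO diestrus library 1 or 2, and the 5 without library 3. A block for the replicate number in all 14 libraries also joins estrus libraries and stages that the numbers were not taken to pair. With it, 1 was higher between genotypes at estrus (Col6a4, 0.96 log2, adjusted p = 0.0443), and 3 were higher and 2 lower in the interaction. The block also ended the stage call of Col23a1 in WT (-0.59 log2, adjusted p = 0.08) and added those of Col4a5 (-0.31 log2) and Col6a4 (-1.04 log2) in HIF2A cKO and of Col9a2 (-0.86 log2) and Col27a1 (-0.56 log2) in WT. Here too the share of all genes called in each fit is not given, so the counts describe the collagen calls alone. Depth is unknown, so genes near 1 FPKM are the least certain.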
